A study of Mus musculus with 39 samples.

Results

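This account compares left ventricles of mice heterozygous for the R14del allele of Pln (labelled Pln wt/R14del, n = 4) with wild type left ventricles (n = 3). All were of the C57BL6/J strain, 8 weeks old and without surgery, and the 7 samples were taken by their labels from the 39 of the series. Left ventricles homozygous for the allele (Pln R14del/R14del, n = 4), of the same strain and age, stood in the same fit and are given beside them. The labels do not give the sex of these 3 groups, and they name separate samples without numbering animals, so each p-value reflects only how far these samples spread, which may be technical. Heterozygous replicate 2 was known for its high Nppa before this account was made, so each result is given with it and without it. Later paragraphs also read homozygous and wild type ventricles at 3 and 5 weeks (n = 4 each). Wild type samples after ischemia-reperfusion (12 weeks), infarction (20 weeks) or sham surgery (12 and 20 weeks) are read as well.

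Pln encodes phospholamban, a small membrane protein of the sarcoplasmic reticulum that restrains the calcium pump SERCA2a, the product of Atp2a2. Phosphorylation by protein kinase A relieves the restraint, so that the pump clears calcium faster during beta-adrenergic stimulation. The R14del allele removes an arginine close to the phosphorylated serine, and human carriers of 1 copy can develop dilated or arrhythmogenic cardiomyopathy.

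Heterozygous libraries held 17.3 M to 19.3 M counts in genes, against 14.6 M to 18.4 M in wild type libraries. Ventricular markers (11 genes, among them Myl2, Myl3 and Tnni3) summed to between 85656 and 91883 CPM (a library's counts scaled to a fixed total) in heterozygous libraries and between 89986 and 93706 CPM in wild type libraries. Heterozygous replicate 2 stood apart from the rest. The chi-square statistic per gene, which is close to 1 when 2 libraries differ by counting noise alone, was between 19.3 and 23.4 in the pairs that held it. It was between 5.41 and 7.97 in the other heterozygous pairs and between 6.05 and 10.98 in the wild type pairs, and no pair held identical counts. Genes on the mitochondrial chromosome took 16.8%, 18.5%, 17.6% and 18.6% of counts in heterozygous replicates 1 to 4, against 16.5%, 15.5% and 15.2% in wild type replicates 1 to 3. The groups did not overlap in this share, and 4 against 3 samples cannot go below an exact two-sided permutation p of 0.0571. In ventricle as a whole, fewer cells of a type and less RNA per cell cannot be told apart.

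No gene passed the threshold between heterozygous and wild type ventricles. Of 14314 genes tested with edgeR's quasi-likelihood test, 0 (0%) had an adjusted p under 0.05, and the smallest adjusted p was 1. At an unadjusted p under 0.05 stood 326 genes (2.28%), 122 of them higher and 204 lower in heterozygous ventricles. DESeq2 and limma-voom with quality weights, which let libraries count unequally, each called 0 genes as well. They had 348 and 801 genes at an unadjusted p under 0.05. Without heterozygous replicate 2 the count was again 0 (0%) of 14274, with a smallest adjusted p of 0.992 and 290 genes (2.03%) at an unadjusted p under 0.05, 98 higher and 192 lower. In the same fit, homozygous ventricles differed from heterozygous ones in 8864 genes (61.9%), of which 4576 were higher and 4288 lower in homozygous ventricles. The standard error of the log2 fold change between heterozygous and wild type ventricles had a median of 0.146, and its lower and upper quartiles were 0.103 and 0.25. The shares of 2.28% and 2.03% lie below the share of 0.05 that exact p-values give on average when no gene differs. Whether the test was cautious was not examined further, and the absence of calls does not show that no gene differed.

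**Figure D1:**
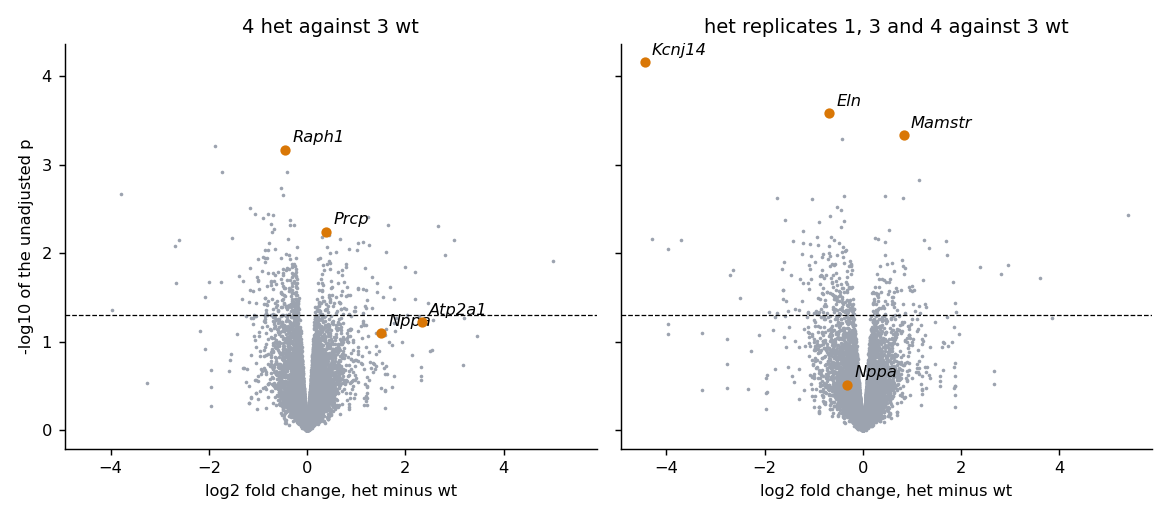
The log2 fold change of heterozygous over wild type ventricles (x axis) against the negative log10 of the unadjusted p of edgeR (y axis), 1 point a gene, with all 4 heterozygous libraries on the left and without replicate 2 on the right. The dashed line marks an unadjusted p of 0.05. No gene passed after adjustment, and Nppa lies at 1.501 on the left and at -0.31 on the right.

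Pln itself was measured at similar levels in both groups. Its GRCm38 position is chromosome 10, 53337667 to 53345987 (plus strand), and reads counted per gene do not show which allele they came from. Pln stood at 5254, 4010, 5379 and 5186 CPM in heterozygous ventricles, against 5114, 4676 and 5067 CPM in wild type ventricles. Replicate 2 held the lowest level of the 7, and the other 3 heterozygous libraries lay above all 3 wild type libraries. The log2 fold change was 0.03 (SE 0.15, adjusted p = 1 by edgeR), and 0.13 (SE 0.14, adjusted p = 1) without replicate 2. Homozygous ventricles had 1980 ± 199 CPM, against 4957 ± 637 CPM in heterozygous ventricles (SD, n = 4 each), a log2 difference of -1.51 (SE 0.14, adjusted p = 2.41e-06). Pln lies inside Cep85l, which runs on the minus strand, and reads of the pair may be mixed, since no source used here gives the strand setting of the counting. Cep85l was counted at 2.74, 1.74, 1.80 and 1.71 CPM in heterozygous ventricles, against 2.77, 3.86 and 4.94 CPM in wild type ventricles, without overlap and without passing the test (adjusted p = 1).

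Genes of calcium handling showed no difference past the threshold. Of 22 tested, 0 were called in either direction, and their median log2 fold change was -0.01, against 0.005 over all genes tested. Atp2a2, the pump that phospholamban restrains, stood at 16267, 11819, 15583 and 14250 CPM in heterozygous ventricles, against 15352, 15763 and 15764 CPM in wild type ventricles. Ryr2, the calcium release channel, stood at 1375, 1003, 1315 and 1264 CPM in heterozygous ventricles, against 1344, 1505 and 1532 CPM in wild type ventricles. In both genes replicate 2 was the lowest library and the groups overlapped. Casq1, the calsequestrin of fast skeletal muscle, had the smallest p of the list, with 20.7, 52.4, 31.6 and 20.8 CPM in heterozygous ventricles and 34.7, 19.3 and 8.16 CPM in wild type ventricles. Its log2 fold change was 0.60 (SE 0.51, adjusted p = 1), and 0.25 (SE 0.51) without replicate 2. The lists of beta-adrenergic and kinase signalling (22 genes), sarcomere and Z-disc (22), ion channels (22) and intercalated disc (14) likewise had 0 members called, with medians between -0.02 and 0.02.

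Among the 7 libraries, most fetal and stress genes of the heart were highest in heterozygous replicate 2. Nppa and Nppb encode the natriuretic peptides ANP and BNP, which the ventricle releases under load, Myh7 is the slow myosin heavy chain of the fetal mouse ventricle, Acta1 is skeletal actin and Ankrd1 encodes a stress-responsive ankyrin repeat protein of the sarcomere and nucleus. The stretches around the starts of Nppa, Nppb, Ankrd1 and Acta1 are shown because these genes shared the pattern. Each holds 250 bases before and 50 after the start of a RefSeq transcript in GRCm38.p6. Capitals mark 3 motifs, each searched on both strands. The first is GGAATG, the core bound by TEAD factors. The second is AGATAA, a site of the zinc finger factors of the heart. The third is TATAAA, the box of core promoters.
Nppa, chr4:148000472-148000771, plus strand: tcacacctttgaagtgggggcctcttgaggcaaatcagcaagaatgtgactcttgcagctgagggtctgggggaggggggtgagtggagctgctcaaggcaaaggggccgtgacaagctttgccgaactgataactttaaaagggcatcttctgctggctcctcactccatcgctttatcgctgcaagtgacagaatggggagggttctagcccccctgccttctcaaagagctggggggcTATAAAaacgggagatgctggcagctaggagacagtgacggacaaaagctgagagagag
Nppb, chr4:147985650-147985949, plus strand: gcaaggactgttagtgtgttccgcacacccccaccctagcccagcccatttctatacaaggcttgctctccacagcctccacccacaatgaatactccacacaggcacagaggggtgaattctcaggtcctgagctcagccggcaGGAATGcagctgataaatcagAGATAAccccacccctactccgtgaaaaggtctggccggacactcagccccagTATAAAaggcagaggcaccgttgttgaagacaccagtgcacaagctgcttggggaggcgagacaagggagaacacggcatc
Ankrd1, chr19:36119795-36120094, minus strand: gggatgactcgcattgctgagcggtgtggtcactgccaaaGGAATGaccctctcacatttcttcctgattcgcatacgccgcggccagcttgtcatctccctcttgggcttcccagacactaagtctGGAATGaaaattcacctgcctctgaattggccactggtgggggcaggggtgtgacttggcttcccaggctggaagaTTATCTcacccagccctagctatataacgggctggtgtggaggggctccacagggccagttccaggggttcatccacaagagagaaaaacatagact
Acta1, chr8:123894726-123895025, minus strand: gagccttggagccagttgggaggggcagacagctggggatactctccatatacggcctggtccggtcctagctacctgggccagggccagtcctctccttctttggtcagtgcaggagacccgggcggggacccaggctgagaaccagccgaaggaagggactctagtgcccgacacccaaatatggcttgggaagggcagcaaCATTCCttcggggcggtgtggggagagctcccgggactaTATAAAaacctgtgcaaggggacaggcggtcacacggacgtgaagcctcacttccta
GGAATG was found once in Nppb, 2 times in Ankrd1 and once in Acta1, and 14.7% of the 32851 stretches of this length in the table hold it. AGATAA was found once each in Nppb and Ankrd1 and is held by 11.2% of stretches, and TATAAA once each in Nppa, Nppb and Acta1, against 13.6% of stretches. Variants of the motifs were not searched, and TGATAA stands unmarked in the Nppa and Nppb stretches. A stretch without capitals for a motif may thus still hold a site. These matches are letters in a window and not measured binding.

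Nppa (chromosome 4, 148000722 to 148002079, plus strand) stood at 221, 2224, 248.7 and 116 CPM in heterozygous ventricles, against 190, 337 and 220 CPM in wild type ventricles. Only replicate 2 lay outside the wild type range on the high side, and replicate 4 lay below it. The 4 homozygous ventricles ranged from 12380.5 to 20172 CPM, so that replicate 2 lay between the wild type and homozygous ranges. The log2 fold change was 1.501 (SE 0.79, adjusted p = 1) with all 4 heterozygous libraries and -0.31 (SE 0.29, adjusted p = 1) without replicate 2.

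Myh7 followed the same order, with 59.6, 308, 56.4 and 75.5 CPM in heterozygous ventricles, against 128, 67.7 and 65.0 CPM in wild type ventricles and 3373 to 5074 CPM in homozygous ones. Its log2 fold change was 0.53 (SE 0.51, adjusted p = 1), and -0.41 (SE 0.26, adjusted p = 1) without replicate 2. Nppb stood at 122, 353, 124 and 125 CPM in heterozygous ventricles, against 141, 118 and 181 CPM in wild type ventricles. Ankrd1 stood at 769, 2304, 1100 and 1084 CPM in heterozygous ventricles, against 1159, 1014 and 1074 CPM in wild type ventricles. In each of these genes replicate 2 was the highest of the 7 libraries, and the 3 other heterozygous libraries lay within or below the wild type range. Acta1 stood at 352, 1880, 414 and 486 CPM in heterozygous ventricles, against 438, 790 and 661 CPM in wild type ventricles. Homozygous ventricles had 1242, 95.6, 274 and 938 CPM of Acta1, so that replicate 2 lay above the homozygous range in this gene. Myh6, the adult alpha myosin heavy chain, stood at 36019, 31871, 35837 and 34307 CPM in heterozygous ventricles, against 36177, 35716 and 33898 CPM in wild type ventricles.

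Over the 15 fetal and stress genes, 0 were called, and the median log2 fold change was 0.33 with all libraries and -0.15 without replicate 2. Replicate 2 held the highest level of the 7 libraries in 13 of the 15, whereas it held the highest level in 23.4% of all genes tested. The 13 include Nppa, for which this library was known beforehand, and the list was chosen with earlier results known. The count thus partly restates what was already known. Sprr1a, a cornified-envelope protein induced by cardiac stress, stood at 0.207, 2.38, 0.106 and 0.227 CPM in heterozygous ventricles, against 0.109, 0.121 and 0.137 CPM in wild type ventricles. Gdf15, a secreted stress cytokine, stood at 0.983, 13.2, 1.64 and 0.910 CPM in heterozygous ventricles, against 0.924, 1.57 and 2.33 CPM in wild type ventricles. The same library was high in both, and its Gdf15 lay below the 26.5 to 65.7 CPM of homozygous ventricles.

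**Figure D2:**
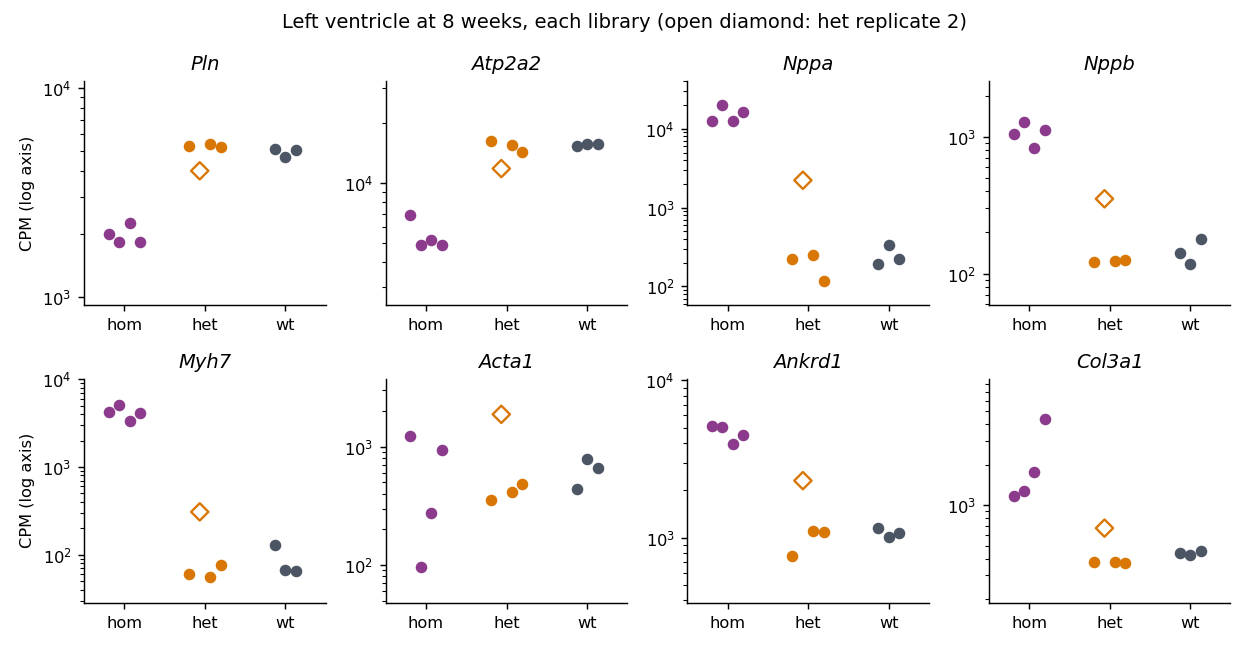
CPM of 8 genes in each library at 8 weeks (log y axis), with homozygous, heterozygous and wild type ventricles from left to right, 1 point a library and no averaging. The open diamond is heterozygous replicate 2, which holds 2224 CPM of Nppa and 4010 CPM of Pln and lies outside the range of the other 3 heterozygous libraries in every panel.

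Nppa is also an atrial marker, so the other markers of atrial cardiomyocytes were read in the same libraries. Myl7, the atrial regulatory light chain, stood at 39.1, 11.01, 118 and 2.39 CPM in heterozygous ventricles, against 39.03, 95.1 and 28.7 CPM in wild type ventricles. Myl4 stood at 45.8, 14.7, 133 and 5.74 CPM in heterozygous ventricles, against 47.9, 101 and 31.9 CPM in wild type ventricles. Sln, which encodes sarcolipin, an atrial inhibitor of the calcium pump in the mouse, stood at 7.50, 2.72, 22.9 and 0 CPM in heterozygous ventricles, against 6.79, 18.0 and 7.95 CPM in wild type ventricles. Replicate 2 was thus below all 3 wild type libraries in Myl7, Myl4 and Sln, and replicate 3 was the highest of the 7 in all 3 genes. Bmp10 had 0 counts in all 7 libraries, which allows 3 counts per library at most by counting error. The 13 markers summed to 1657, 4025, 2027 and 1319 CPM in heterozygous ventricles, against 1617, 2139 and 1683 CPM in wild type ventricles, and Nppa made up most of the sum in replicate 2. Mybphl followed Myl7, with 4.04, 1.91, 17.7 and 0.284 CPM in heterozygous ventricles and 4.51, 12.1 and 4.32 CPM in wild type ventricles. Of the others, Kcnj3 was lowest in replicate 2, Clu and Pam were highest in it at 857 and 819 CPM, and Nr2f1, Nr2f2, Tbx5 and Dkk3 lay inside the range of the other 6.

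Replicate 2 differed from the other 6 libraries in many more genes than these. Among 10231 genes of at least 5 CPM on average, it lay over 1.5-fold above all 6 others in 53 genes and over 1.5-fold below all 6 in 29. The other heterozygous libraries lay above in 3, 2 and 0 genes and below in 5, 0 and 9 (replicates 1, 3 and 4). Wild type replicates 1 to 3 lay above in 1, 9 and 28 genes and below in 0, 1 and 5. Homozygous and wild type ventricles at 5 weeks, which are other samples, were not used to choose these genes. Replicate 2, however, was known for its high Nppa. At 5 weeks Nppa stood at 5102 to 7677 CPM in homozygous ventricles, against 173 to 288 CPM in wild type ones. The counts below and the medians of the next paragraph are thus not independent of that choice. Of the 53 genes high in replicate 2, 46 (86.8%) had risen in homozygous ventricles at 5 weeks (adjusted p under 0.05 by edgeR) and 2 had fallen, and of the 29 low ones 19 (65.5%) had fallen and 2 had risen. Over all 10230 genes of that level tested at 5 weeks, 21.1% had risen and 25.9% had fallen. The 46 genes were 2.14% of the genes that rose at 5 weeks and the 19 were 0.717% of those that fell.

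The genes that changed most in homozygous ventricles were then read in each library. At 5 weeks 932 genes (7%) were over 2-fold higher and 269 (2.02%) over 2-fold lower in homozygous than in wild type ventricles, at an adjusted p under 0.05. Over the 932, the median log2 ratio to the wild type mean at 8 weeks was -0.05, 0.21, -0.09 and -0.15 in heterozygous replicates 1 to 4. It was between 1.06 and 1.97 in the homozygous libraries and -0.06, -0.04 and 0.10 in the wild type libraries. Over the 269, the medians were 0.05, -0.20, -0.02 and -0.01 in heterozygous replicates 1 to 4 and between -1.40 and -1.09 in the homozygous libraries. Replicate 2 stood furthest from wild type in both sets, and the homozygous libraries stood further still.

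**Figure D3:**
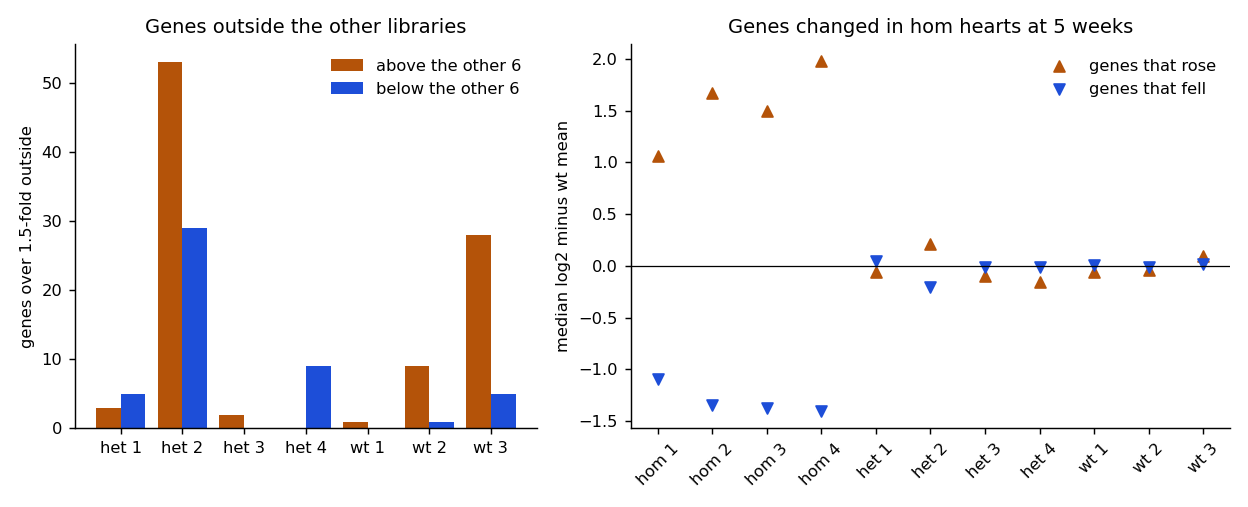
Left, the number of genes of at least 5 CPM that lie over 1.5-fold above or below all 6 other libraries, for each heterozygous and wild type library (bars start at 0). Right, the median log2 ratio to the wild type mean at 8 weeks over the 932 genes that rose and the 269 that fell in homozygous ventricles at 5 weeks, 1 point a library. Heterozygous replicate 2 has 53 and 29 genes outside, and its medians are 0.21 and -0.20.

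Among genes of at least 5 CPM in replicate 2 itself, those furthest above the other 6 libraries by log2(CPM + 0.5) were Atp2a1, Nppa, Ndnf, Krt18, Tbx15, Gdf15, Grin2c, Cilp, Nlrc3 and Lrp8. Atp2a1, the calcium pump of fast skeletal muscle, stood at 1.04, 20.3, 1.17 and 1.02 CPM in heterozygous ventricles, against 0.870, 1.21 and 1.44 CPM in wild type ventricles and 0.442 to 3.39 CPM in homozygous ones. Ndnf, a secreted factor of endothelial and neural cells, stood at 2.54, 17.9, 2.49 and 1.14 CPM in heterozygous ventricles, against 2.28, 1.87 and 2.13 CPM in wild type ventricles. Cilp, a matrix protein of activated fibroblasts, stood at 15.6, 103, 19.9 and 32.8 CPM in heterozygous ventricles, against 27.5, 18.6 and 12.5 CPM in wild type ventricles. Nppa, Krt18, Cilp, Gdf15 and Lrp8 were higher still in every homozygous library. Atp2a1, Tbx15 and Grin2c in replicate 2 lay above all 4 homozygous libraries, and Ndnf and Nlrc3 lay inside the homozygous range.

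Among genes of at least 5 CPM in each of the other 6 libraries, those furthest below them in replicate 2 were Hprt, Acot1, Pfkfb1, Scn4a, Mtr, Adra1a, Kcnj3, Maob, Sbk3 and Fbp2. Hprt, the X-linked purine salvage enzyme often used as a reference gene, stood at 43.9, 3.13, 50.5 and 46.8 CPM in heterozygous ventricles, against 45.1, 41.5 and 52.7 CPM in wild type ventricles. Adra1a, an alpha-adrenergic receptor, stood at 12.5, 5.97, 15.0 and 13.8 CPM in heterozygous ventricles, against 15.1, 16.0 and 16.7 CPM in wild type ventricles. Kcnj3, a subunit of the acetylcholine-gated potassium channel, stood at 65.3, 27.4, 76.6 and 54.5 CPM in heterozygous ventricles, against 54.2, 67.4 and 52.6 CPM in wild type ventricles. In homozygous ventricles Adra1a ranged from 2.14 to 2.74 CPM and Kcnj3 from 13.1 to 22.5 CPM, below the level of replicate 2, whereas Hprt stood at 3.33, 71.9, 79.5 and 73.6 CPM.

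Replicate 2 held the lowest level in 24 of 24 genes of fatty acid oxidation and 13 of 16 of the tricarboxylic acid cycle. It did so in 20 of 30 nuclear genes of oxidative phosphorylation, against 17.5% of all genes tested. Lists outside metabolism also exceeded this share, with 13 of 22 ion channel genes, 11 of 22 of calcium handling and 7 of 11 ventricular markers. In the same order, replicate 2 was highest in 1, 6 and 1 of their genes. The other metabolic lists differed among themselves. Among targets of PPAR factors and of fasting, 8 of 14 were lowest and 1 was highest in replicate 2. Replicate 2 was highest in 7 and lowest in 6 of 20 genes of glycolysis and glucose uptake, highest in 7 and lowest in 2 of 14 genes of cholesterol synthesis, and highest in 3 and lowest in 0 of 7 mitochondrially encoded genes. Acadm, the medium-chain acyl-CoA dehydrogenase, stood at 1067, 783, 1093 and 1108 CPM in heterozygous ventricles, against 1137, 1086 and 1068 CPM in wild type ventricles. Replicate 2 held the highest level in 26 of 32 genes of extracellular matrix, in 12 of 12 fibroblast markers and in 9 of 11 markers of activated fibroblasts. Over all genes tested it did so in 23.4%. The matrix list shares members with both fibroblast lists, Col1a1 and Postn among them, so these counts partly repeat each other. Fibroblast markers summed to 3139, 4597, 3166 and 2945 CPM in heterozygous ventricles, against 3369, 3190 and 2919 CPM in wild type ventricles, with none of the 12 at 0. Markers of activated fibroblasts summed to 339, 687, 331 and 368 CPM in heterozygous ventricles, against 349, 340 and 328 CPM in wild type ventricles. The part of cell makeup in the profile of replicate 2 was not tested.

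Between the groups, none of the matrix genes passed. Of 32 tested, 0 were called, with a median log2 fold change of 0.10 and of -0.04 without replicate 2. Comp, cartilage oligomeric matrix protein, had the smallest p, with 5.28, 21.2, 8.01 and 9.21 CPM in heterozygous ventricles and 6.90, 4.64 and 2.95 CPM in wild type ventricles. Its log2 fold change was 1.17 (SE 0.41, adjusted p = 1), and 0.65 (SE 0.30, adjusted p = 1) without replicate 2. Col1a1, Col3a1 and Postn, which encode fibrillar collagens and the matricellular protein periostin, had log2 fold changes of 0.12, 0.07 and 0.34, and of -0.08, -0.18 and -0.06 without replicate 2. Without it, 9 of the 32 matrix genes lay below all wild type libraries, against 8.13% of all genes, and on TMM-scaled CPM 5 of them did, against 5.31% of all genes.

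Genes that separated the groups without overlap were near the number that chance gives. Where groups do not differ, 4 against 3 libraries separate a share of 0.0571 of genes on average, both directions together. On CPM of the library total, all 4 heterozygous libraries lay above all 3 wild type libraries in 208 genes (1.45%) and below them in 576 (4.02%). On TMM-scaled CPM, the scale of the fit, the counts were 369 (2.58%) above and 415 (2.9%) below, so the size of the excess of lower genes depends on the scaling. Without replicate 2, heterozygous libraries lay above in 385 genes (2.7%) and below in 1160 (8.13%), or in 731 (5.12%) and 758 (5.31%) on TMM-scaled CPM. With 1 library fewer, chance alone separates a larger share.

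The lowest unadjusted p among genes without overlap and of at least 5 CPM belonged to Raph1, an adaptor of the actin cytoskeleton. It stood at 22.1, 18.4, 20.0 and 20.2 CPM in heterozygous ventricles, against 26.04, 27.8 and 30.4 CPM in wild type ventricles, a log2 fold change of -0.44 (SE 0.10, unadjusted p = 0.00067, adjusted p = 1 by edgeR). Homozygous ventricles had 63.1 to 82.1 CPM, on the other side of wild type. F13a1, the coagulation factor XIII A chain of resident macrophages, stood at 33.6, 35.6, 29.6 and 31.5 CPM in heterozygous ventricles, against 41.5, 41.7 and 58.0 CPM in wild type ventricles, and at 99.4 to 143 CPM in homozygous ones. Pdpr, a regulator of pyruvate dehydrogenase phosphatase, stood at 35.3, 22.4, 28.2 and 24.6 CPM in heterozygous ventricles, against 35.7, 50.01 and 62.4 CPM in wild type ventricles. Trim56 and Ap4e1 were the other genes of this kind on the low side, with log2 fold changes of -0.42 and -0.53. On the high side stood Prcp, Commd4, Zfp51, Spry2 and 1190007I07Rik, with log2 fold changes between 0.31 and 0.44. Prcp, a lysosomal carboxypeptidase that cleaves angiotensin II, stood at 20.7, 19.8, 23.2 and 25.5 CPM in heterozygous ventricles, against 18.4, 15.4 and 18.8 CPM in wild type ventricles, with an adjusted p of 1.

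Of the 48 lists of genes, 0 had a member called with or without replicate 2. Among genes of the unfolded protein response, 9 of 21 genes lay lower in all heterozygous libraries than in all wild type libraries (4.02% of all genes did), and 6 did on TMM-scaled CPM (2.9% of all genes). Manf, a chaperone-like secreted protein, stood at 31.5, 30.8, 32.1 and 27.4 CPM in heterozygous ventricles, against 39.8, 37.2 and 39.1 CPM in wild type ventricles. Dnajc3, a co-chaperone of the endoplasmic reticulum, stood at 51.2, 48.0, 50.4 and 42.1 CPM in heterozygous ventricles, against 54.5, 55.3 and 62.9 CPM in wild type ventricles. The median of the list was -0.13, and Manf had a log2 fold change of -0.31 (SE 0.23, adjusted p = 1). Of 7 mitochondrially encoded genes tested, 5 lay higher in all heterozygous libraries on both scales, against 1.45% of all genes in CPM and 2.58% on TMM-scaled CPM, and the median of the list was 0.22. Among them, mt-Nd1 stood at 21861, 22932, 21961 and 24720 CPM in heterozygous ventricles, against 20437, 19132.5 and 18801 CPM in wild type ventricles, with a log2 fold change of 0.26 (SE 0.26, adjusted p = 1). The mitochondrially encoded genes are part of the mitochondrial share of counts given above, so their count partly restates that share.

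No marker of smooth muscle and pericytes (11 tested), endothelium (12) or macrophages (16) was called, and members of each list went both ways. The median log2 fold changes were -0.017, 0.0017 and -0.11 in that order, and single members reached from -0.63 to 0.22, from -0.23 to 0.15 and from -0.50 to 0.74. Myh11, the myosin of smooth muscle with the smallest p of its list, stood at 80.0, 81.0, 60.3 and 68.3 CPM in heterozygous ventricles, against 93.2, 104 and 88.2 CPM in wild type ventricles, a log2 fold change of -0.36 (SE 0.12, adjusted p = 1). The 11 markers of smooth muscle and pericytes summed to between 1687 and 2036 CPM in heterozygous ventricles, against 1921 to 1989 CPM in wild type ventricles, and so overlapped. The 12 endothelial markers summed to between 2086 and 2378 CPM in heterozygous ventricles, against 2203 to 2545 CPM in wild type ventricles. Mrc1, a marker of resident macrophages with the smallest p of its list, stood at 29.2, 29.1, 24.0 and 25.3 CPM in heterozygous ventricles, against 31.3, 33.8 and 37.9 CPM in wild type ventricles. The 16 macrophage markers summed to between 419 and 546 CPM in heterozygous ventricles, against 474 to 615 CPM in wild type ventricles. Hspa1b, an inducible heat shock protein, had 0.673, 0.753, 1.59 and 0.682 CPM in heterozygous ventricles, against 1.09, 36.3 and 1.85 CPM in wild type ventricles. Its difference rested on wild type replicate 2 (log2 fold change -3.79, SE 0.99, adjusted p = 1). Zbtb16, a target of the glucocorticoid receptor, stood at 19.9, 21.2, 33.5 and 30.4 CPM in heterozygous ventricles, against 35.5, 69.0 and 58.2 CPM in wild type ventricles, with a log2 fold change of -1.01 (SE 0.34, adjusted p = 1).

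Without replicate 2, the smallest p belonged to Kcnj14, a potassium channel of the inward rectifier family (chromosome 7, 45816460 to 45824782, minus strand). It stood at 0.518, 17.6, 0.584 and 0.796 CPM in heterozygous ventricles, against 13.5, 13.7 and 15.6 CPM in wild type ventricles and 5.72, 0.809, 10.1 and 14.1 CPM in homozygous ones. Replicate 2 thus stood with the wild type libraries in this gene, and the homozygous libraries differed among themselves. Without replicate 2 the log2 fold change was -4.44 (SE 0.74, unadjusted p = 6.95e-05, adjusted p = 0.992 by edgeR), and with it -1.55 (SE 0.98, adjusted p = 1). The gene was called by DESeq2 (adjusted p = 0.000992), by edgeR with no filter on low counts (0.0145) and by edgeR with only heterozygous and wild type libraries in the fit (1.04e-06). With the homozygous libraries left out, edgeR called 6 genes, which were Kcnj14, Ush1c, Bcat2, Lrrc4b and Gm11814 as lower and Capn11 as higher. The standard error of the log2 fold change of Kcnj14 was 0.18 in that fit, against 0.74 with the homozygous libraries included.

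Levels of Kcnj14 also differed widely within other groups of the series. At 5 weeks it stood between 9.76 and 17.0 CPM in homozygous ventricles, against 11.5, 0.353, 11.4 and 1.001 CPM in wild type ventricles. At 3 weeks it stood between 7.18 and 11.7 CPM in homozygous ventricles, against 17.5, 0.701, 6.88 and 0.0765 CPM in wild type ventricles. Wild type libraries at 3 and 5 weeks thus held both levels as low as in heterozygous replicates 1, 3 and 4 and levels over 5 CPM.

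Most genes near Kcnj14 on chromosome 7 had overlapping groups. A few, named after their values were seen, divided the heterozygous and wild type libraries at 8 weeks as Kcnj14 did. Bcat2, the mitochondrial branched-chain aminotransferase (45570153 to 45589711), stood at 120, 173, 112 and 114 CPM in heterozygous ventricles, against 183, 182 and 201 CPM in wild type ventricles. Ush1c, the scaffold protein harmonin (46195350 to 46238503), stood at 10.3, 22.4, 9.45 and 10.4 CPM in heterozygous ventricles, against 22.3, 24.3 and 26.2 CPM in wild type ventricles. Lrrc4b, a synaptic adhesion protein (44429018 to 44463351), stood at 23.5, 34.7, 19.1 and 19.8 CPM in heterozygous ventricles, against 35.7, 38.8 and 36.7 CPM in wild type ventricles. In all 3 genes replicate 2 lay next to or within the wild type range and the other heterozygous libraries well below it. Mamstr, a coactivator of muscle transcription factors (45639977 to 45646521), went the other way, with 13.4, 7.59, 11.2 and 12.8 CPM in heterozygous ventricles and 7.83, 6.87 and 6.92 CPM in wild type ventricles. In homozygous ventricles Bcat2 ranged from 75.2 to 143 CPM, Ush1c from 3.76 to 17.7 CPM and Lrrc4b from 3.79 to 19.4 CPM. These ranges lay below wild type, whereas Kcnj14 reached 14.1 CPM in homozygous ventricles. Ush1c also differed within wild type ventricles at 5 weeks, with 25.8, 6.89, 25.8 and 7.59 CPM, as Kcnj14 did. Of 93 tested genes within 2 Mb of Kcnj14, 13 (14.0%) lay lower and 6 (6.45%) higher in heterozygous replicates 1, 3 and 4 than in all wild type libraries, against 8.13% and 2.7% of all genes. The 13 include Kcnj14 itself, for which the window was chosen, and Bcat2, Ush1c and Lrrc4b, and the 6 include Mamstr, so the count partly restates these values. Within 2 Mb of Pln, 12 genes were tested, of which Cep85l and Asf1a lay lower and Pln higher. Eln and Rpl30 followed Kcnj14 in p among lower genes without replicate 2, with log2 fold changes of -0.69 (SE 0.13) and -0.42 (SE 0.09) and an adjusted p of 1 each. DESeq2 called Eln, which encodes elastin (adjusted p = 0.026). Rpl30 has many processed copies in the genome and H2-Q5, with -1.03 (SE 0.27), belongs to a family of near-identical genes, so both counts are uncertain.

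**Figure D4:**
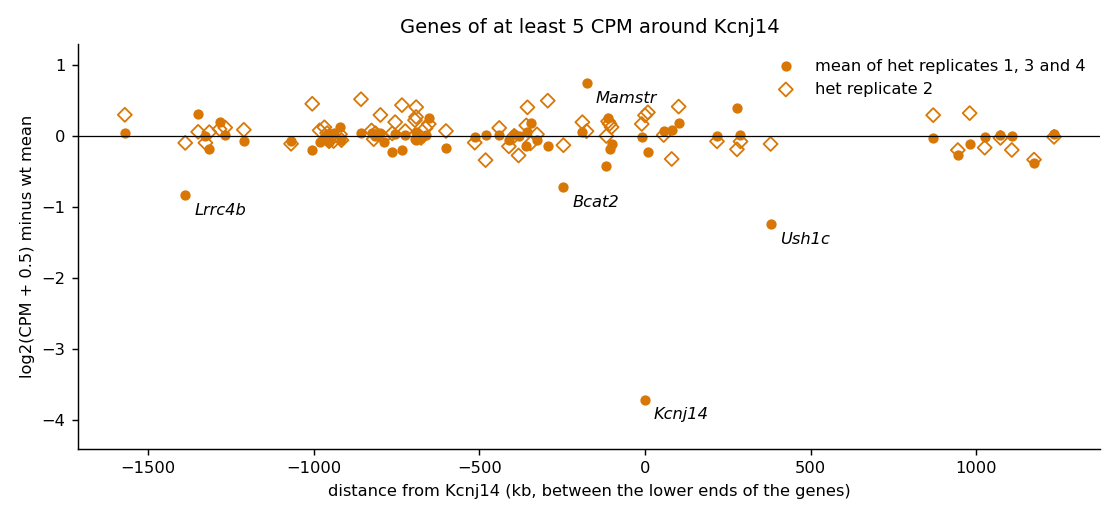
Difference in log2(CPM + 0.5) from the wild type mean (y axis) for genes of at least 5 CPM within 2 Mb of Kcnj14, by distance (x axis, kb). Filled points are means of heterozygous replicates 1, 3 and 4 and open diamonds are replicate 2. Kcnj14, Ush1c, Lrrc4b and Bcat2 lie low and Mamstr high among the filled points, and near 0 among the diamonds.

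**Figure D5:**
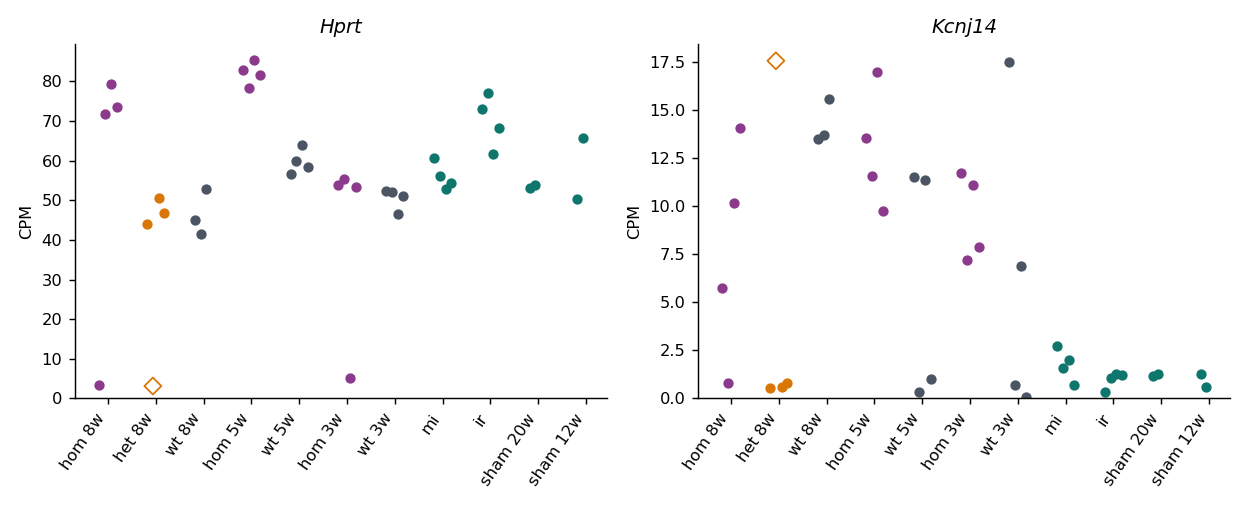
CPM of Hprt (left) and Kcnj14 (right) in all 39 libraries of the series by group, 1 point a library (mi, infarction; ir, ischemia-reperfusion; number and w, age in weeks). The open diamond is heterozygous replicate 2, with 3.13 CPM of Hprt and 17.6 CPM of Kcnj14, and Hprt lies under 10 CPM in 3 libraries.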

How the data were processed

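The values are raw read counts per gene deposited by the authors, in 1 table for all libraries (38293 genes). Per the labels, RNA was extracted with Trizol and libraries were poly(A)-selected and stranded (TruSeq). Per the submitters' processing notes, STAR 2.7.3a, featureCounts (Subread 2.0.0) and mm10 were used. No source used here gives the annotation release or strand setting. Gene IDs without a symbol took 0.127% of counts, and positions are from GENCODE on GRCm38. Genes were filtered by filterByExpr, scaled by TMM and tested with edgeR 4.0.16 (quasi-likelihood test, R 4.3.3) in 1 fit of the homozygous, heterozygous and wild type libraries at 8 weeks, with Benjamini-Hochberg adjustment at 0.05. The fit was repeated without heterozygous replicate 2. CPM are per library total. Alternatives included DESeq2 1.42.0, limma-voom with quality weights (limma 3.58.1), other scalings, filters and leaving out each library. The scripts were tested on simulated data. The members and the 48 lists (675 of 717 genes tested) were chosen with earlier results of these data known. Named genes were 12 fixed genes, those of at least 5 CPM without overlap and with the smallest p in each direction, the gene of smallest p in a list, the 10 furthest above (at least 5 CPM in replicate 2) and below (at least 5 CPM in each other library) in replicate 2 and the atrial markers. Acadm, Manf, Sprr1a, Cep85l, Asf1a and the genes near Kcnj14 were named after their values were seen, as was the TMM-scaled count of genes without overlap. Depth limits genes of few counts, and the limit that a count of 0 allows covers counting error only.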

Additional observations from a re-analysis of the deposited data

Results flagged for a closer look

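In 60 sets of 4 heterozygous libraries examined, 1 library lay far from the other 3 in 20 (Dixon's 95% critical value), of which 19 were replicate 2; chance marks about 1 in 20 groups, and many of these genes were named because of that library. Replicate 2 was far above the other 3 for Nppa (2223.5 CPM), Nppb (352.756), Myh7 (307.676), Acta1 (1879.55), Col1a1 (348.468), Col3a1 (674.744), Kcnj14 (17.5567), Rpl30 (64.9538), H2-Q5 (8.05404), Atp2a1 (20.3379), Ndnf (17.9043), Krt18 (7.64845), Tbx15 (9.90821), Gdf15 (13.211), Grin2c (6.31576) and Nlrc3 (17.3249). It was far below them for Pln (4009.7 CPM), Hprt (3.12891) and Acot1 (3.65039). Replicate 1 was far above the other 3 for Nr2f1 (4.60644 CPM), a nuclear receptor of atrial cells. What sets replicate 2 apart was not tested.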

How the results depend on the processing

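With all heterozygous libraries, 0 genes were called under every alternative run, leave-one-out fits included (0 to 0), and with the replicate block (252 genes at an unadjusted p under 0.05). Without replicate 2, the count of 0 became 2 with DESeq2 and 1 with limma-voom and quality weights (Capn11). It became 1 with no filter on low counts and 6 with only heterozygous and wild type libraries in the fit. The count was 0 with the replicate block. The replicate numbers did not pair the samples (correlations 0.060, -0.070 and -0.149). Without replicate 2 the log2 fold change turned to -0.31 for Nppa, -0.19 for Nppb, -0.41 for Myh7, 0.046 for Myh6, -0.55 for Acta1, 0.017 for Atp2a2, -0.093 for Ankrd1, -0.077 for Col1a1, -0.18 for Col3a1 and -0.059 for Postn. With limma-voom and quality weights it turned to -0.031 for Nppa, -0.092 for Myh7, 0.0092 for Myh6 and -0.30 for Acta1. It also turned to -0.014 for Col1a1 and -0.080 for Col3a1. With the replicate block it turned to 0.045 for Myh6, -0.022 for Col1a1 and -0.094 for Col3a1. Myh6, at -0.0004 in the fit reported, was 0.0031 with no filter, 0.00079 with only heterozygous and wild type libraries, 0.032 without wild type replicate 1 and 0.018 without wild type replicate 2, and Pln was -0.0084 without heterozygous replicate 3. Leaving out 1 library at a time, the log2 fold change lay between -0.0084 and 0.13 for Pln, -0.31 and 1.85 for Nppa, -0.19 and 0.48 for Nppb, -0.41 and 0.94 for Myh7, -0.051 and 0.046 for Myh6, -0.55 and 0.57 for Acta1, -0.13 and 0.017 for Atp2a2, -0.093 and 0.49 for Ankrd1, -0.077 and 0.20 for Col1a1, -0.18 and 0.14 for Col3a1, and -0.059 and 0.51 for Postn. None of these values passed the test, and the cause was not tested.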

Other observations

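Hprt was under 10 CPM in 3 of the 39 libraries of the series, a pattern noticed after the values were seen. These were heterozygous replicate 2 at 8 weeks (3.13 CPM), homozygous replicate 1 at 8 weeks (3.33 CPM) and homozygous replicate 3 at 3 weeks (5.17 CPM), and the other libraries ranged from 41.5 to 85.3 CPM. Ndnf stood at 17.9, 32.3 and 15.3 CPM in these libraries in the same order, Atp2a1 at 20.3, 3.39 and 9.15 CPM, and Tbx15 at 9.91, 5.37 and 5.96 CPM. In the other libraries Ndnf reached 5.62 CPM at most and Atp2a1 2.02 CPM. Tbx15 reached 5.81 CPM in infarction replicate 2 and so did not separate these libraries from the rest. Nppa stood at 1621 CPM in homozygous replicate 3 at 3 weeks, against 214 to 246 CPM in the other homozygous libraries of that age. In homozygous replicate 1 at 8 weeks Nppa stood at 12522 CPM, inside the range of its group. Any link between Hprt and Nppa was not tested.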
